A study of Mus musculus with 15 samples.

Results

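Cytochrome P450 genes of families 1 to 4 were described in mouse induced renal tubular epithelial cells (iRECs), fibroblasts reprogrammed into tubule-like cells by introduced transcription factors. A gene was a member when its symbol was Cyp, a family number from 1 to 4, a subfamily letter and a closing number; 75 of the 27179 genes in the deposited tables met this rule. In the tables, 19 of the 75 had a base mean of 0 in all 4 comparisons, 40 were above 0 but always under 10, and 16 reached 10 in at least 1 comparison. The base mean is the authors' mean normalized read count over the 6 libraries of a comparison.

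The study compared 4 three-dimensional microenvironments with ordinary culture: cells seeded by hand in Matrigel, which is an extract of basement membrane, in fibrin or in collagen I, and cells placed by inkjet bioprinting into a mix of fibrin with collagen I (called printed cultures), each set against 2D plates. All 15 libraries came from 1 cell line, 3 per group at passages 35, 48 and 53, and all groups received Renal Epithelial Growth Medium for 7 days. The labels call the growth of printed cultures guided and that of the other groups self-assembled, so printing, its mixed matrix and guided growth cannot be told apart. The labels give fibrin and collagen I for the printed cultures, while the name of their deposited table mentions collagen alone; the labels were followed. Each table gives 1 value per gene and comparison, so the value of a gene in each library and the depth of each library are unknown here, and every comparison shares the same 3 libraries of 2D cells. The p-values cover the spread between cultures of 1 line, and in bulk RNA fewer cells of a type and less RNA per cell cannot be told apart.

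Cytochromes P450 are haem enzymes that insert an oxygen atom into their substrate; those of families 1 to 4 sit mainly in the endoplasmic reticulum and take electrons from cytochrome P450 reductase, with cytochrome b5 as a second donor. Families 1 to 3 are known for the oxidation of drugs and other foreign compounds, and the Cyp2c and Cyp2j subfamilies also for making epoxides of arachidonic acid. Family 4 hydroxylates the far end of fatty acids and eicosanoids, and in the kidney the Cyp4a enzymes of the proximal tubule are a known source of 20-hydroxyeicosatetraenoic acid.

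The results turned most on Cyp4a10 and Cyp4a31, neighbours on mouse chromosome 4 at chr4:115518287-115533649 and chr4:115563627-115579015 (GRCm38.p6), with a close copy, Cyp4a32, at chr4:115600927-115622507. The first 120 coding bases of the 3 genes, read from the GRCm38 genome at the GENCODE coding start, show how alike they are; capitals mark the 7 positions at which the 3 do not all have the same base.
Cyp4a10: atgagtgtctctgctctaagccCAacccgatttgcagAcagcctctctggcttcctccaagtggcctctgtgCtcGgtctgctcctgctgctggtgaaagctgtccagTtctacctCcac
Cyp4a31: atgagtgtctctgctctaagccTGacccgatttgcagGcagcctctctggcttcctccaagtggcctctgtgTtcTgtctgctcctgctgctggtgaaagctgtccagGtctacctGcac
Cyp4a32: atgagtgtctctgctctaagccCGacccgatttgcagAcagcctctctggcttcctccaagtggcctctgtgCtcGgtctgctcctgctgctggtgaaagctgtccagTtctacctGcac
Over the whole coding sequence, Cyp4a10 and Cyp4a31 were identical at 1475 of 1527 aligned bases, or 96.6%. Of all 50-base stretches of the Cyp4a10 transcript, 30.5% occur unchanged in another gene, and 25% in Cyp4a32. For Cyp4a31 the shares were 21.8% in any other gene and 15.5% in Cyp4a32. How the authors' counting assigned reads that match more than 1 gene is not given in the sources used here, so the split of reads among these copies is uncertain. Cyp4a32 itself had base means between 2.33 and 4.38, always under 10, and these values rest on the same unknown assignment.

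The 250 bases before 1 RefSeq transcript start of each of 3 members called in at least 1 comparison, Cyp1a1, Cyp2a5 and Cyp2j5, are printed to show the letters near their starts (RefSeq GRCm38.p6; strand of the gene, 5′ to 3′). Capitals mark matches to GCGTG, the core bound by the aryl hydrocarbon receptor, to AGGTCA, the hexamer that nuclear receptors bind, and to the TATA box TATAAA, each searched on both strands.
Cyp1a1: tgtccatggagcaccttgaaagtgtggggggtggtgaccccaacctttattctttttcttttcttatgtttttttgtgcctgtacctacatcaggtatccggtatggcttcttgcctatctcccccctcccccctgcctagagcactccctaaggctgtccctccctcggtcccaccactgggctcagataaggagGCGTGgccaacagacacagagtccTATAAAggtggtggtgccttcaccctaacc
Cyp2a5: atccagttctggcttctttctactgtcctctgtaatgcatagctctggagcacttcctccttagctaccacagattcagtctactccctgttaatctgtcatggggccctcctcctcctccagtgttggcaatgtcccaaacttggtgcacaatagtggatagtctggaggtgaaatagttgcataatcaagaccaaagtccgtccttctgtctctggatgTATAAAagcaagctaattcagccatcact
Cyp2j5: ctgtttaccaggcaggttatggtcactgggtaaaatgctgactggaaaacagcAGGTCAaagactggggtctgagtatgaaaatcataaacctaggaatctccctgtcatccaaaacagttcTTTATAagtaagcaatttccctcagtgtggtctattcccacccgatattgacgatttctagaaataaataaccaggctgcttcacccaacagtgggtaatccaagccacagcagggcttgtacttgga
These windows lie at chr9:57697363-57697612 on the plus strand, chr7:26835089-26835338 on the plus strand and chr4:96664120-96664369 on the minus strand. The Cyp1a1 window lies within the span given for the gene below, and the Cyp2j5 window overlaps the edge of its gene, since the span covers all annotated transcripts. The Cyp1a1 window holds GCGTG starting 54 bases before the start and TATAAA at 30; the Cyp2a5 window holds TATAAA at 29. The Cyp2j5 window holds AGGTCA at 197, and TATAAA on the other strand at 128. Among 32851 promoter windows of this length, 28.2% hold GCGTG, 14.0% hold AGGTCA and 12.4% hold TATAAA, so each match is a description of letters only.

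The 75 members fell into families 1, 2, 3 and 4 as 3, 48, 7 and 17 genes, of which 1, 8, 1 and 6 reached a base mean of 10. Few genes of the large subfamilies reached the minimum: 1 of 15 Cyp2c genes, 1 of 9 Cyp2d genes, 1 of 7 Cyp3a genes and 0 of 5 Cyp2b genes. Cyp4f had 4 of 9 genes at this level, and Cyp2j and Cyp4a had 2 of 7 and 2 of 5. The 16 genes were Cyp1a1, Cyp2a5, Cyp2c23, Cyp2d22, Cyp2j5, Cyp2j6, Cyp2s1, Cyp2t4, Cyp2u1, Cyp3a13, Cyp4a10, Cyp4a31, Cyp4f13, Cyp4f16, Cyp4f17 and Cyp4f40. Just inside the minimum in the authors' deposited tables were Cyp2t4, with a highest base mean of 12.1, and Cyp2c23, with 13.9. Just outside were Cyp1b1 with 8.79, Cyp2c65 with 6.55 and Cyp2j9 with 6.20. Of the 16, 13 reached 10 in all 4 tables and 6 reached 100 in all 4; the 3 that did not reach 10 everywhere, Cyp2c23, Cyp2t4 and Cyp4f40, passed the test in no comparison.

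**Figure D1:**
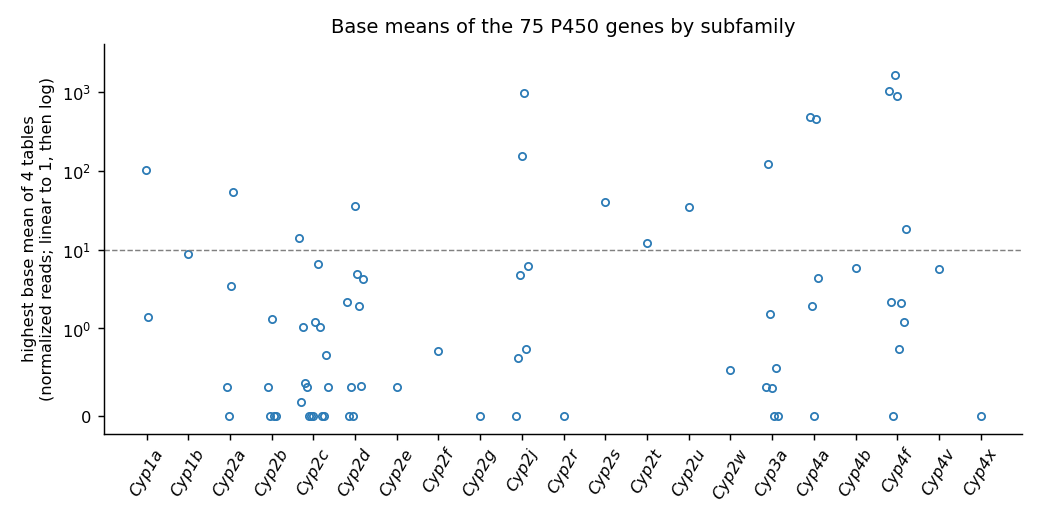
Highest base mean of each of the 75 genes over the authors' 4 deposited tables, by subfamily (normalized reads, linear up to 1 and log above), with a dashed line at the minimum of 10. Each open point is 1 gene; 16 points lie above the line, among them 4 of Cyp4f and 2 each of Cyp2j and Cyp4a, and the highest is Cyp4f16 at 1602.

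A level in each group was computed from the deposited base means and fold changes, as normalized reads with no error available. Cyp4f13, Cyp4f16, Cyp4f17 and Cyp2j6 held most of the summed level of the 16 genes: 66.3% in Matrigel, 80.9% in fibrin, 82.5% in collagen I, 81.2% in printed cultures and 85.3% in 2D. Cyp4f enzymes hydroxylate leukotriene B4 and other fatty acids, and Cyp2j6 belongs to the subfamily of arachidonic acid epoxygenases. Cyp4a10 and Cyp4a31 together held 23.0% of the sum in Matrigel, against 8.39% in fibrin, 5.71% in collagen I, 7.16% in printed cultures and 6.94% in 2D. Per kilobase of a coding transcript, the computed levels in 2D were 662 for Cyp4f16, 555 for Cyp4f13, 324 for Cyp4f17 and 257 for Cyp2j6, and 83.0 for Cyp4a31, 68.5 for Cyp4a10, 35.8 for Cyp2j5, 28.6 for Cyp1a1 and 28.1 for Cyp3a13. With the length of all annotated exons in place of 1 transcript, Cyp4f13 had 219 per kilobase, below Cyp2j6 at 257, so the order of these genes depends on the transcript assumed.

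**Figure D2:**
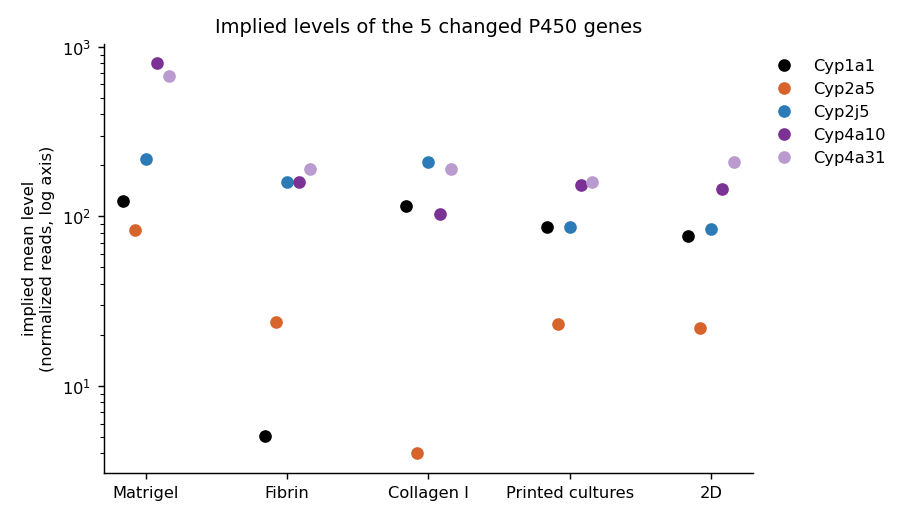
Level of the 5 members called in at least 1 comparison, in Matrigel, fibrin, collagen I, printed cultures and 2D (log axis, normalized reads computed from the deposited base means and fold changes; points are shifted sideways by gene and carry no error). Cyp4a10 stands at 798 in Matrigel and between 103 and 159 in the other 4 groups, and Cyp1a1 at 5.05 in fibrin and between 77.1 and 123 elsewhere.

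Against 2D, at the authors' adjusted p under 0.05 and a base mean of at least 10, the members gave 7 calls in 60 tests: 5 genes were called at least once and 11 in no comparison. In Matrigel 4 of 16 members were called, all higher, beside 6.65% of the 13951 genes tested, 4.22% being higher. In fibrin 2 of 15 were called, 1 higher and 1 lower, beside 8.66% of all genes (5.42% higher and 3.25% lower). In collagen I 1 of 13 was called, and it was higher, beside 11.3% of all genes, 6.6% being higher. In printed cultures 0 of 16 members were called by DESeq2, beside 3.41% of all genes; at an unadjusted p under 0.05, 1 of 16 members (Cyp4f13) and 12.2% of all genes passed. At that unadjusted threshold 5 of 16 members and 16.9% of all genes passed in Matrigel, 5 of 15 and 20% in fibrin, and 3 of 13 and 23.1% in collagen I. The median log2 fold change of the members was 0.16 in Matrigel, -0.02 in fibrin, 0.13 in collagen I and 0.04 in printed cultures, while that of all genes tested lay between -0.00 and 0.01. With so few calls, the counts in fibrin, collagen I and printed cultures stood near their backgrounds.

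The calls depended on how strict the test was. With the spread of the test statistics over all genes as the null, 2 of 16 members stayed called in Matrigel, beside 2.42% of all genes; 0 of 15 were called in fibrin, beside 2.22%, and 0 of 13 in collagen I, beside 1.02%. Adjusted over all genes with a p-value, 0 of 15 were called in fibrin, beside 7.71%, and among genes at a base mean of at least 100, 1 (Cyp2j5) was called in fibrin, beside 9.14%. At an adjusted p under 0.01 no member was called by DESeq2 in fibrin (5.17% of all genes) or collagen I (6.39%). At 0.1 there were 4 in fibrin (12.1%), with Cyp4f13 and Cyp4f17 added, and 2 in collagen I (15.2%), with Cyp3a13 added.

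**Figure D3:**
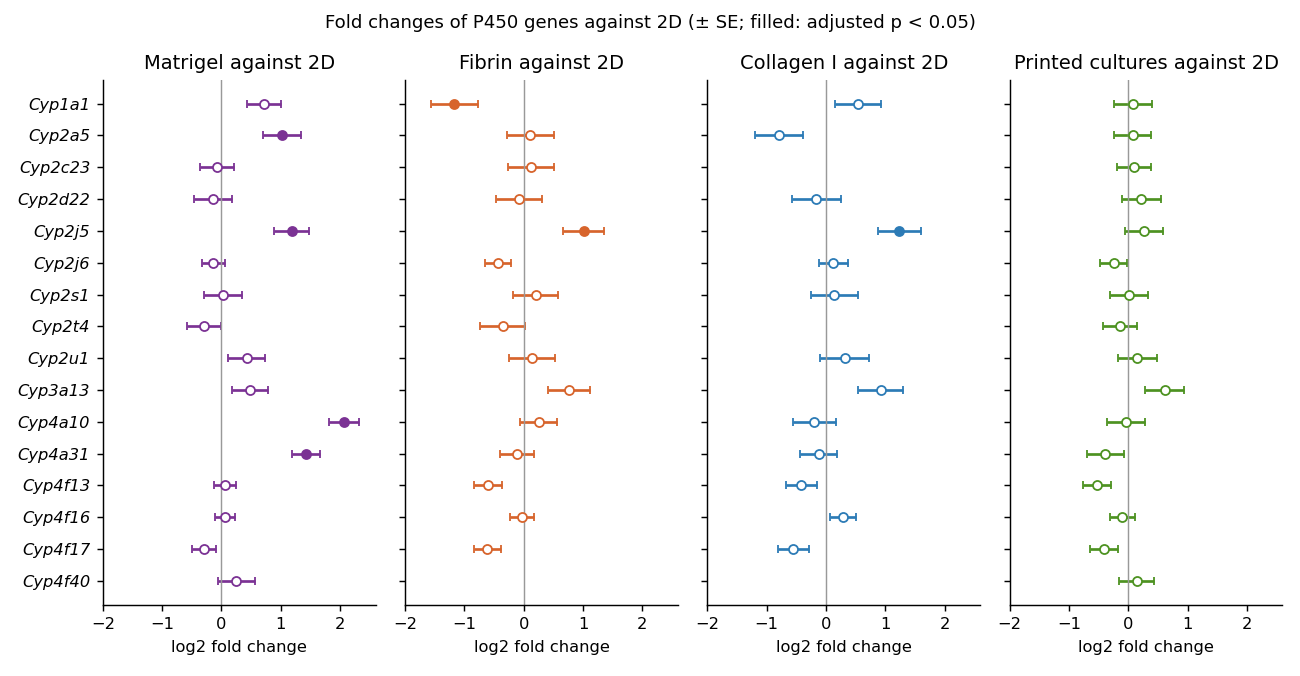
Log2 fold change against 2D from the authors' deposited tables, with bars of ± 1 SE, for each described member at a base mean of at least 10. Filled points passed an adjusted p of 0.05; Cyp4a10 and Cyp4a31 rose in Matrigel, by 2.07 and 1.43, and their other 3 points lie near 0.

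The fatty acid hydroxylases Cyp4a10 and Cyp4a31 rose in Matrigel, with the highest fold changes of the 16 members there. The base mean of Cyp4a10 in the authors' deposited tables was 477 with Matrigel, 150 with fibrin, 120 with collagen I and 153 with printed cultures. Its log2 fold change against 2D in the authors' deposited table was 2.07 ± 0.26 in Matrigel (SE, 3 libraries a group; 95% interval 1.56 to 2.57; adjusted p = 4.44e-13), which is a 4.19-fold higher level. For the other microenvironments the authors' deposited tables gave 0.25 ± 0.31 in fibrin (adjusted p = 0.762), -0.20 ± 0.37 in collagen I (adjusted p = 0.812) and -0.04 ± 0.32 in printed cultures (adjusted p = 0.992). The Matrigel value was therefore several SE above 0 and each of the other values was within 1 SE of 0.

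Cyp4a31 also had its highest base mean with Matrigel: the value in the authors' deposited tables was 444 with Matrigel, 198 with fibrin, 193 with collagen I and 189 with printed cultures. Its log2 fold change in Matrigel was, in the authors' deposited table, 1.43 ± 0.23 (SE; 95% interval 0.97 to 1.89; adjusted p = 1.42e-07), or 2.70-fold. The others in the authors' deposited tables were -0.11 ± 0.28 in fibrin, -0.12 ± 0.31 in collagen I and -0.39 ± 0.32 in printed cultures, with adjusted p of 0.911, 0.869 and 0.766. Both Cyp4a calls also held when the spread of the test statistics over all genes was used as the null. The computed levels gave larger ratios, 5.53-fold for Cyp4a10 (798 in Matrigel against 144 in 2D) and 3.21-fold for Cyp4a31 (669 against 208).

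The rise of both Cyp4a genes in Matrigel was also larger than their change in every other microenvironment when the difference of the deposited fold changes was tested over all genes. For Cyp4a10 the log2 fold change minus that in Matrigel was -1.81 ± 0.40 in fibrin (SE; adjusted p = 0.00185), -2.27 ± 0.45 in collagen I (adjusted p = 0.000306) and -2.11 ± 0.41 in printed cultures (adjusted p = 0.000273). For Cyp4a31 the differences from Matrigel were -1.54 ± 0.37 in fibrin (adjusted p = 0.00494), -1.56 ± 0.39 in collagen I (adjusted p = 0.0199) and -1.82 ± 0.39 in printed cultures (adjusted p = 0.00146). The differences use deposited fold changes that share the 2D libraries, and the SE was computed as if the 2 values were independent. Both genes passed in the 3 comparisons with Matrigel, and since 30.5% and 21.8% of their 50-base stretches occur in other genes, how far the 2 results rest on the same reads was not tested.

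The epoxygenase Cyp2j5, at chr4:96627432-96664171 and known for its high level in mouse kidney, rose in all 3 hand-cast gels. Its base mean in the authors' deposited tables was 153 with Matrigel, 121 with fibrin, 142 with collagen I and 87.8 with printed cultures. Its log2 fold change in the authors' deposited tables was 1.19 ± 0.30 in Matrigel (SE; adjusted p = 0.00265), 1.01 ± 0.34 in fibrin (adjusted p = 0.0416) and 1.24 ± 0.37 in collagen I (adjusted p = 0.0115), which are 2.28-fold, 2.02-fold and 2.36-fold. In printed cultures it was 0.26 ± 0.32 in the authors' deposited table, with a 95% interval of -0.37 to 0.90 (adjusted p = 0.898). Few of its reads could be shared with other genes: 0.174% of its 50-base stretches occur elsewhere.

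The smaller value of Cyp2j5 in printed cultures was not shown to differ from the gels. The difference of log2 fold changes was -0.92 ± 0.44 from Matrigel (SE; 95% interval -1.79 to -0.06; adjusted p = 0.920), -0.75 ± 0.47 from fibrin (adjusted p = 0.977) and -0.97 ± 0.49 from collagen I (adjusted p = 0.690). With the spread of the statistics over all genes as the null, the Cyp2j5 calls were lost, with adjusted p of 0.0787 in Matrigel, 0.439 in fibrin and 0.525 in collagen I. Its neighbour Cyp2j6 (chr4:96516138-96564305), whose coding sequence is identical to that of Cyp2j5 at 79.0% of aligned bases, was called in no comparison. In the authors' deposited tables the log2 fold change of Cyp2j6 was -0.14 ± 0.20 in Matrigel, -0.43 ± 0.23 in fibrin, 0.13 ± 0.24 in collagen I and -0.24 ± 0.23 in printed cultures. The difference between these 2 genes was not tested.

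Cyp1a1, at chr9:57687928-57703824, is the classic target of the aryl hydrocarbon receptor and oxidises polycyclic aromatic compounds. It fell in fibrin: the authors' deposited table gave a log2 fold change of -1.17 ± 0.40 (SE; 95% interval -1.95 to -0.39; adjusted p = 0.0423), a level 2.25-fold lower than in 2D. Elsewhere the authors' deposited tables gave 0.72 ± 0.29 in Matrigel (adjusted p = 0.138), 0.54 ± 0.39 in collagen I (adjusted p = 0.441) and 0.08 ± 0.32 in printed cultures (adjusted p = 0.985). Its base mean in the authors' deposited tables was 101 with Matrigel, 40.7 with fibrin, 93.1 with collagen I and 84.3 with printed cultures, so the fibrin table stood lowest.

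The computed levels of Cyp1a1 were 123 in Matrigel, 5.05 in fibrin, 115 in collagen I, 86.9 in printed cultures and 77.1 in 2D. The fibrin value is what remains after the 2D level, a median over the 4 tables, is taken from the fibrin base mean; the fibrin table alone gave a 2D level of 56.9. The Matrigel, collagen I and printed culture tables gave 2D levels of 75.8, 78.5 and 79.7. The ratio of 15.3 between 2D and fibrin therefore rests on a small remainder with no error available. The deposited 2.25-fold is a model estimate that may be moderated towards 0, so the size of the fall is uncertain. The difference of fold changes between fibrin and Matrigel was -1.88 ± 0.49 on the log2 scale (SE; adjusted p = 0.0164). Collagen I minus fibrin was 1.70 ± 0.56 (adjusted p = 0.253) and printed cultures minus fibrin 1.25 ± 0.51 (adjusted p = 0.376), which did not pass. The call in fibrin was lost when p-values were adjusted over all genes with a p-value (adjusted p = 0.0561) and with the spread over all genes as the null (adjusted p = 0.424).

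Cyp2a5, at chr7:26835339-26843264, is the mouse coumarin 7-hydroxylase. Its base mean in the authors' deposited tables was 53.1 with Matrigel, 22.7 with fibrin, 12.6 with collagen I and 23.3 with printed cultures. It rose in Matrigel, where the authors' deposited table gave a log2 fold change of 1.02 ± 0.32 (SE; 95% interval 0.40 to 1.64; adjusted p = 0.0254), or 2.03-fold. In the authors' deposited tables it was 0.11 ± 0.40 in fibrin (adjusted p = 0.940), -0.79 ± 0.40 in collagen I (adjusted p = 0.221) and 0.07 ± 0.32 in printed cultures (adjusted p = 0.987). Collagen I minus Matrigel was -1.81 ± 0.51 (SE; 95% interval -2.81 to -0.80), with an adjusted p of 0.0666 that missed the threshold; at an assumed correlation of 0.5 from the shared 2D libraries it passed (adjusted p = 0.000134). The Matrigel call was lost with the spread over all genes as the null (adjusted p = 0.252), and 40.8% of the 50-base stretches of Cyp2a5 occur in another gene, 31.0% in Cyp2a4.

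**Figure D4:**
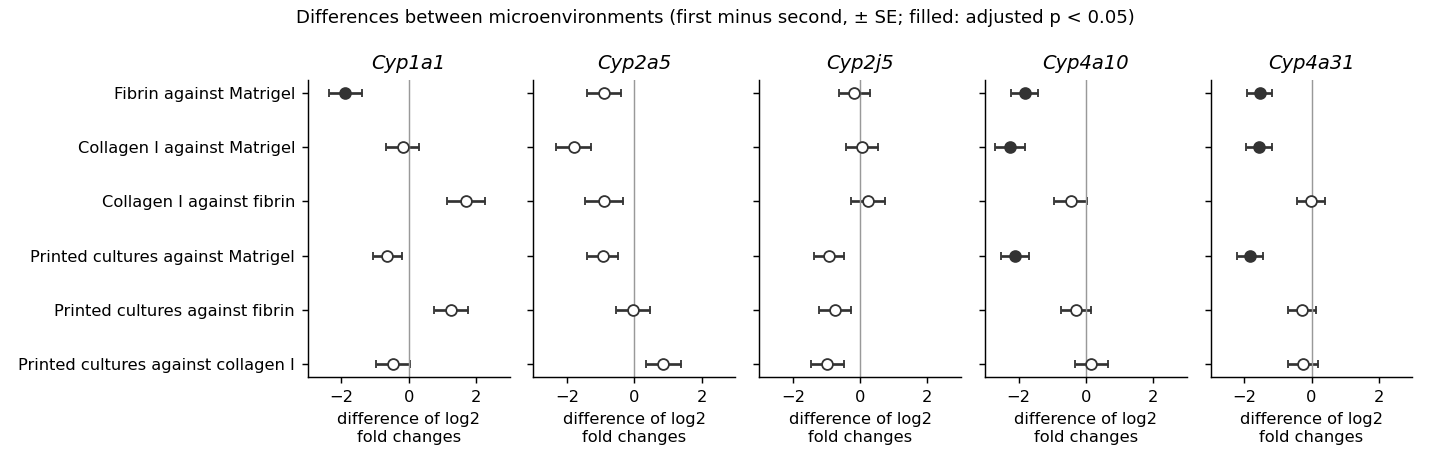
Differences of log2 fold changes between pairs of microenvironments for the members called in at least 1 comparison, first named minus second, with bars of ± 1 SE. Filled points passed an adjusted p of 0.05 over all genes; both Cyp4a genes lie between -1.54 and -2.27 in the 3 pairs with Matrigel.

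Over the 6 pairs of microenvironments, 7 of 85 differences passed, all of them against Matrigel. In fibrin against Matrigel 3 of 15 members passed, beside 1.17% of all genes; in collagen I against Matrigel 2 of 13, beside 0.48%; in printed cultures against Matrigel 2 of 16, beside 0.643%. None of the members passed in the other 3 pairs: 0 of 13 in collagen I against fibrin (0.536% of all genes), 0 of 15 in printed cultures against fibrin (1.45%) and 0 of 13 in printed cultures against collagen I (0.899%). At an unadjusted p under 0.05, the same test passed 1 of 13 members (Cyp1a1) in collagen I against fibrin, beside 2.96% of all genes, 1 of 15 (Cyp1a1) in printed cultures against fibrin, beside 6.85%, and 1 of 13 (Cyp2j5) in printed cultures against collagen I, beside 7.12%. At an assumed correlation of 0.5 from the shared 2D libraries, the following were added. Cyp4f13 passed in fibrin against Matrigel, with -0.66 ± 0.21 (SE; adjusted p = 0.0392; 4 of 15 members, beside 4.96% of all genes), and Cyp2a5 in collagen I against Matrigel (3 of 13, beside 4.26%). Cyp1a1 passed in collagen I against fibrin, beside 1.9% of all genes, and in printed cultures against fibrin, beside 5.41%.

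The 3 abundant Cyp4f genes lie together on chromosome 17, Cyp4f17 at chr17:32506192-32530158, Cyp4f16 at chr17:32536545-32551798 and Cyp4f13 at chr17:32924688-32947415, and none was called. Cyp4f13 had, in the authors' deposited tables, a log2 fold change of 0.06 ± 0.18 in Matrigel, -0.60 ± 0.23 in fibrin (adjusted p = 0.0856), -0.42 ± 0.26 in collagen I and -0.53 ± 0.24 in printed cultures (adjusted p = 0.331). The values of Cyp4f17 in the authors' deposited tables were -0.29, -0.61 (adjusted p = 0.0665), -0.55 and -0.41 in the same order. Cyp4f16 stayed closer to 0 in the authors' deposited tables, with 0.06 ± 0.17, -0.02 ± 0.21, 0.29 ± 0.22 and -0.10 ± 0.21. The 3 genes share 82.6% to 84.3% of coding bases with each other, and 24.8% of the 50-base stretches of Cyp4f16 occur in Cyp4f37. An adjusted p that misses the threshold does not show that these genes were level.

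Cyp3a13, a member of the drug-metabolising Cyp3a subfamily, had the highest value in each comparison among the members that were called in none. In the authors' deposited tables its log2 fold change was 0.48 ± 0.31 in Matrigel, 0.76 ± 0.35 in fibrin, 0.92 ± 0.38 in collagen I and 0.61 ± 0.32 in printed cultures, with adjusted p of 0.493, 0.191, 0.0984 and 0.470. Its computed level was 109 in Matrigel, 132 in fibrin, 167 in collagen I and 152 in printed cultures, against 83.2 in 2D. All 4 comparisons share the 2D libraries, so their common sign is not independent evidence. Among the 11 genes called in no comparison, the lowest values in the authors' deposited tables were -0.29 in Matrigel (Cyp2t4), -0.61 in fibrin (Cyp4f17), -0.55 in collagen I (Cyp4f17) and -0.53 in printed cultures (Cyp4f13).

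The low members Cyp2d22, Cyp2s1 and Cyp2u1 had base means between 24.3 and 40.2 in the authors' deposited tables, and their log2 fold changes lay between -0.16 and 0.43. Cyp2u1 is known as a fatty acid hydroxylase, and Cyp2s1 as a P450 of epithelia outside the liver. None of the 3 was called.

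The genes that supply P450 enzymes with electrons and haem were measured at a base mean of at least 10 for 19 of 19 listed genes, and all calls among them were higher: 4 in Matrigel, 2 in fibrin, 3 in collagen I and 1 in printed cultures. The shares of all genes that were higher are 4.22%, 5.42%, 6.6% and 2.69% in that order. Those that were lower are 2.43%, 3.25%, 4.7% and 0.724%, and these shares stand beside every list below. With the spread over all genes as the null, the list's counts were 1, 0, 0 and 1. The list's median log2 fold change was 0.23, 0.13, 0.28 and 0.08 in that order. Cyb5a, the cytochrome b5 of the endoplasmic reticulum, rose by 0.95 ± 0.20 in Matrigel (SE; adjusted p = 0.00015) and by 0.998 ± 0.24 in collagen I (adjusted p = 0.000897) in the authors' deposited tables. Cyb5b, its mitochondrial form, rose by 0.54 in Matrigel, 0.57 in fibrin and 0.63 in collagen I in the authors' deposited tables. Among enzymes of haem synthesis, Alad rose by 0.56 in Matrigel and 0.65 in fibrin, and Cpox by 0.55 in Matrigel, in the authors' deposited tables. Hmox1, which breaks haem down, rose by 1.05 in collagen I and 0.97 in printed cultures in the authors' deposited tables. The reductase Por, named outside the naming rule after its values were seen, had 0.53 ± 0.20 in Matrigel (adjusted p = 0.101) and between -0.21 and 0.03 elsewhere in the authors' deposited tables.

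Of the 24 listed nuclear receptors and other regulators of P450 genes, 19 reached a base mean of 10 in each table. The vitamin D receptor Vdr rose in Matrigel, by 0.66 ± 0.18 (SE; adjusted p = 0.00698) in the authors' deposited table; no regulator was called in printed cultures by DESeq2, and 1 of 19 (Ppard) had an unadjusted p under 0.05. The aryl hydrocarbon receptor Ahr, the receptor for Cyp1a1, had 0.02 ± 0.29 in fibrin in the authors' deposited table (adjusted p = 0.988). Ppara, the receptor through which fibrates raise Cyp4a genes in mice, had 0.21 ± 0.29 in Matrigel in the authors' deposited table (adjusted p = 0.835). These 2 were likewise named after their values were seen, and the part of either receptor in the P450 results was not tested.

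**Figure D5:**
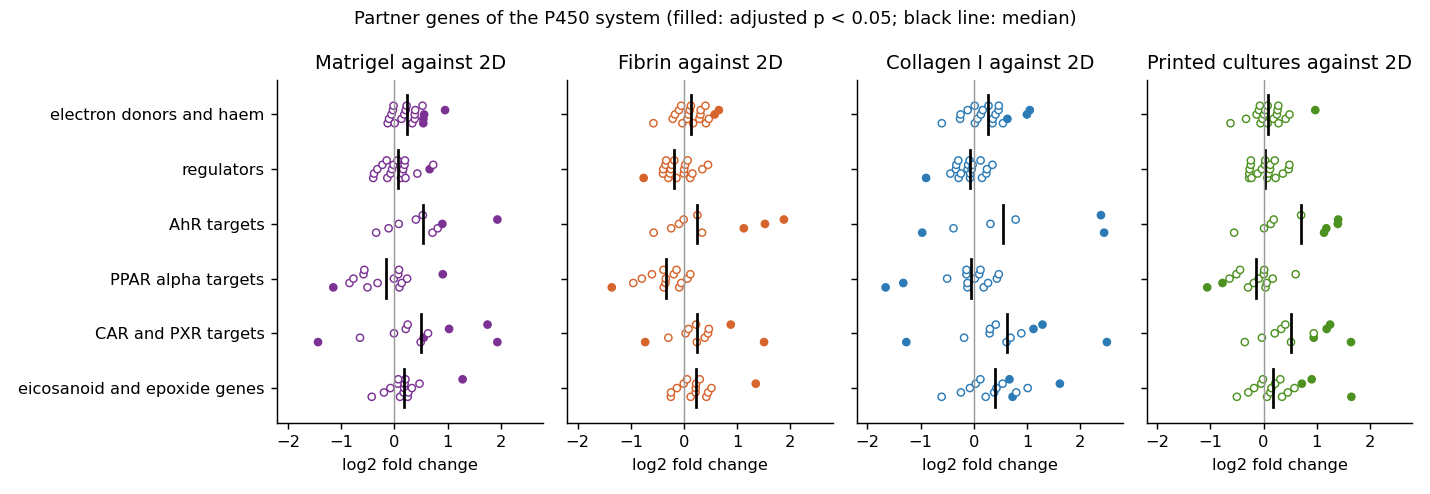
Log2 fold changes against 2D from the authors' deposited tables for the genes of each partner list at a base mean of at least 10, with filled points at an adjusted p under 0.05 and a black line at the list's median. The medians of electron donors and haem genes are 0.23 in Matrigel and 0.08 in printed cultures, and those of PPAR alpha targets lie between -0.35 and -0.05.

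Known targets of the receptors, other than P450 genes, were set beside the members. Of the aryl hydrocarbon receptor targets at the minimum, 2 of 9 rose in Matrigel, 3 of 9 in fibrin, 2 of 6 in collagen I and 4 of 9 in printed cultures, beside 4.22%, 5.42%, 6.6% and 2.69% of all genes. In collagen I 1 (Stc2) fell, with -0.97 in the authors' deposited table, beside 4.7% of all genes lower. Under the null from the spread over all genes, 1, 2, 2 and 3 rose in the same order and 0 fell. Nqo1, a quinone reductase that is also a target of NRF2, rose in the authors' deposited tables by 1.94 in Matrigel, 1.12 in fibrin, 2.39 in collagen I and 1.40 in printed cultures. In fibrin, where Cyp1a1 fell, the others that rose were Ugt1a6a, by 1.88, and Ugt1a6b, by 1.52, in the authors' deposited table; these Ugt1a forms share exons, so the reads of each are uncertain. Of the 14 targets of PPAR alpha at the minimum, 1 rose in Matrigel, the peroxisomal thiolase Acaa1b, by 0.91 in the authors' deposited table. Acot2, a mitochondrial acyl-CoA thioesterase, fell in all 4, with log2 fold changes of -1.15 in Matrigel, -1.36 in fibrin, -1.66 in collagen I and -0.77 in printed cultures in the authors' deposited tables. Vnn1, a pantetheinase, fell in collagen I, with -1.33, and in printed cultures, with -1.06, in the authors' deposited tables. In Matrigel 1 of these 14 targets rose and 1 fell, beside 4.22% of all genes higher and 2.43% lower. Under the null from the spread over all genes, 0 rose and 1 fell there. The part of PPAR alpha in the Cyp4a results was not tested.

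Of 11 targets of the drug receptors CAR and PXR at the minimum, 4 rose and 1 fell in Matrigel, 2 rose and 1 fell in fibrin, 3 rose and 1 fell in collagen I, and 4 rose in printed cultures. Of all genes, 4.22%, 5.42%, 6.6% and 2.69% were higher and 2.43%, 3.25%, 4.7% and 0.724% lower in that order. Under the null from the spread over all genes, 3 rose and 1 fell in Matrigel. Under the same null 1 rose in fibrin, 1 in collagen I and 4 in printed cultures. Gsta4, a glutathione transferase, rose by 1.94, 1.504, 2.50 and 1.64 in that order in the authors' deposited tables, and Ces2c, a carboxylesterase, by 1.75, 0.88, 1.29 and 0.94. Gadd45b fell in the 3 gels, with -1.44 in Matrigel, -0.73 in fibrin and -1.27 in collagen I in the authors' deposited tables. Among eicosanoid and epoxide genes 1 of 15 rose in Matrigel, 1 of 14 in fibrin, 3 of 14 in collagen I and 3 of 16 in printed cultures, with no falls; the counts in Matrigel and fibrin are near the 4.22% and 5.42% of all genes that were higher. With the spread over all genes as the null they were 0, 0, 0 and 2. Tbxas1, thromboxane synthase and itself a P450 of another family, rose by 1.28 in Matrigel and 1.62 in collagen I in the authors' deposited tables, and Ptgds, a prostaglandin D synthase, by 1.35 in fibrin and 1.65 in printed cultures.

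Among P450 genes of other families, Cyp24a1, the vitamin D 24-hydroxylase of the tubule, rose in all 4 comparisons, by 2.84 in Matrigel, 1.41 in fibrin, 1.97 in collagen I and 1.78 in printed cultures in the authors' deposited tables. Cyp39a1, an oxysterol hydroxylase, rose by 1.85 in Matrigel and 0.93 in fibrin in the authors' deposited tables. The sterol demethylase Cyp51 rose in collagen I by 0.97, and the sterol 27-hydroxylase Cyp27a1 fell in fibrin, with -1.05, in the authors' deposited tables. Of 19 listed genes of other families, 9, 10, 9 and 9 reached the minimum in Matrigel, fibrin, collagen I and printed cultures, and the counts that rose were 2, 2, 2 and 1. Under the null from the spread over all genes, the counts that rose were 2, 0, 0 and 1.

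Markers of cell types were read from the same tables. All 12 tubule epithelium markers reached the minimum in every table, with summed computed levels of 183168 in Matrigel, 126856 in fibrin, 149300 in collagen I and 184698 in printed cultures, against 156107 in 2D. Of 12 proximal tubule markers 6 reached the minimum, Miox was at 0 in the Matrigel and fibrin tables, and the summed level was 10979 in Matrigel, 5448 in fibrin, 5041 in collagen I and 4475 in printed cultures, against 4530 in 2D. In Matrigel 4 of these 6 rose and 1 fell, beside 4.22% of all genes higher and 2.43% lower. Under the null from the spread over all genes, 2 rose and 0 fell. At an adjusted p under 0.05, 2 rose in fibrin, 2 rose and 1 fell in collagen I, and 0 were called in printed cultures. The largest rise in Matrigel was that of Kap, by 3.02 in the authors' deposited table. Kap also rose by 1.99 in fibrin and 2.86 in collagen I, and Acsm2 rose by 1.38 in Matrigel, 1.42 in fibrin and 1.13 in collagen I. Slc22a12 and Slc27a2 rose in Matrigel only, by 1.20 and 0.66, and Slc27a2 fell in collagen I, with -0.79. The marker that fell in Matrigel was Gatm, with -0.91 in the authors' deposited table. Hepatocyte markers, relevant because liver expresses many P450 genes, were at the minimum for 2, 1, 3 and 3 of 11 genes in the 4 comparisons. Their summed level was 223 in Matrigel, 167 in fibrin, 166 in collagen I and 111 in printed cultures, against 95.5 in 2D. In Matrigel the 2 at the minimum were Ttr and Fga, with base means of 81.2 and 56.4. Neither was called there: the log2 fold change was 0.44 ± 0.22 for Ttr (authors' adjusted p = 0.313) and -0.04 ± 0.32 for Fga. Alb and Trf rose in collagen I, by 2.17 and 1.90 in the authors' deposited table. The summed levels of fibroblast markers lay between 387 and 539 in the 4 microenvironments, against 453 in 2D, those of endothelium between 60.7 and 85.3, against 65.0, and those of macrophages between 446 and 2348, against 916, the highest being in printed cultures. Single markers went both ways: in the authors' deposited tables Col1a1 had -1.49 in fibrin and -2.35 in collagen I, while S100a4 rose by 1.09 in fibrin, 1.49 in collagen I and 1.36 in printed cultures. Csf1r had -1.31 in Matrigel and -1.496 in collagen I, and in printed cultures it rose by 0.71 and Cd68 by 1.601, in the authors' deposited tables. Csf1r and Cd68 were the 2 of 6 macrophage markers at the minimum in printed cultures. Ptprc, Adgre1 and Lyz2 had base means of 1.33, 0.585 and 1.65 there, and Itgam 8.79. The part of these markers in the P450 results was not tested.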

How the data were processed

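Total RNA of 15 iREC cultures was sequenced. Per the submitters' processing notes, DESeq2 1.22.1, featureCounts 1.6.3, STAR 2.6.0b-1, Trim Galore 0.4.3, FastQC 0.72 and the build mm10 are listed, with no order or role; for annotation, strand and design formula, nothing is given in the sources used here. The authors deposited 1 DESeq2 table per microenvironment against 2D, per the file headers. Each deposited table gives the base mean (a signal of normalized reads), the log2 fold change, its SE and Wald statistic (scores) and the p-value with its adjusted value for 27179 genes. Adjusted p-values recomputed by Benjamini-Hochberg matched the deposited ones to 3.33e-15. No column holds values of single libraries, so no library could be left out or weighed by depth; library totals and intervals on counts are unknown, and the count test named for count tables was not run. Low genes have deposited fold changes near 0 with small SE, so fold changes may be moderated towards 0. The folds, intervals and computed levels given here take the deposited values as they stand, so they would carry any such moderation.

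Levels were computed by scaling the 4 tables to each other on 11175 genes: the 2D level is the median over the tables of the level implied by base mean and fold change, and a microenvironment's level is what remains of the base mean. Differences between microenvironments were tested from the deposited fold changes and SE with a normal approximation, adjusted by Benjamini-Hochberg over all genes at a base mean of 10 in both tables, and the method was tested on simulated data. The alternative null divides each Wald statistic by the spread over all genes (1.30 in Matrigel, 1.38 in fibrin, 1.58 in collagen I and 1.15 in printed cultures). Transcript, coding and promoter sequences came from GENCODE and RefSeq; 62 of the 75 members had a promoter there. Members and lists were chosen with earlier results of these data known. All members at a base mean of 10 in at least 1 table are described, called ones in full; of each partner list at most 4 called genes per comparison, by size of change, are named. Python 3.11.15 and scipy 1.17.1 were used. 1 gene of the regulator list is not reported here.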

Additional observations from a re-analysis of the deposited data

Results flagged for a closer look

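The change against 2D differed between Matrigel and another microenvironment, by a test of the difference itself, for 3 members. For Cyp1a1, fibrin minus Matrigel was -1.88 ± 0.49 on the log2 scale (SE; adjusted p = 0.0164). For Cyp4a10, fibrin minus Matrigel was -1.81 ± 0.40, collagen I minus Matrigel -2.27 ± 0.45 and printed cultures minus Matrigel -2.11 ± 0.41. For Cyp4a31 the same 3 differences were -1.54 ± 0.37, -1.56 ± 0.39 and -1.82 ± 0.39. The 2 Cyp4a genes share sequence and all values share the 2D libraries, and the part of either in these differences was not tested.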

How the results depend on the processing

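No paired analysis was possible because the deposited tables hold 1 value per gene and comparison, which also kept any library from being left out. With the spread of statistics over all genes as the null, members called fell to 2 in Matrigel (Cyp4a10, Cyp4a31), 0 in fibrin and 0 in collagen I. Adjusted over all genes with a p-value, fibrin had 0 calls. At an adjusted p under 0.01 fibrin and collagen I had 0 calls each; at 0.1 they had 4 and 2. At a base mean of 100, fibrin had 1 call. Assuming a correlation of 0.5 from the shared 2D libraries, 1 member (Cyp1a1) passed in collagen I against fibrin and 1 in printed cultures against fibrin, and Cyp2a5 was added in collagen I against Matrigel (3 in all) and Cyp4f13 in fibrin against Matrigel (4 in all). Over the members' counts, 38 alternatives left the result within 1.5 times and 11 moved it. No called value changed sign between the deposited fold change and the ratio of computed levels, which is itself derived from the deposited values. The changed adjustment and the changed null altered only the adjusted p, so they could not change a sign. Cyp4a10 in printed cultures, uncalled, was -0.04 as deposited and 0.08 as the ratio of computed levels. Of the counts for partner lists, 18 of 56 moved by more, 17 of them under the changed null. Cyp2a5, Cyp1a1 and Cyp2j5 thus depended on the null used, while both Cyp4a genes in Matrigel passed under each alternative run. With 3 libraries a group and unknown depth, an adjusted p above the threshold does not show that a gene was level.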

Other observations

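Symbols with a letter or suffix after the number fell outside the rule, and 5 of 9 reached a base mean of 10; they are named here after their values were seen. Cyp4a12a, the male-biased arachidonic acid hydroxylase of mouse kidney, had 0.62 ± 0.30 in Matrigel (adjusted p = 0.257) and was called in no comparison in the authors' deposited tables. Its near copy Cyp4a12b (chr4:115411624-115439034) had -0.13 ± 0.25 in Matrigel in the authors' deposited table and was likewise uncalled; its difference from Cyp4a10 and Cyp4a31 was not tested. In the authors' deposited tables Cyp4a30b rose in fibrin by 1.12 ± 0.39 (adjusted p = 0.048), at a base mean of 15.8. Cyp2d37-ps, labelled a pseudogene by its symbol, fell in collagen I, with -1.53 ± 0.42 (adjusted p = 0.0046) in the authors' deposited table, at a base mean of 18.4.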
